A study of Homo sapiens with 8 samples.

Results

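The let-7 and miR-98 family was followed in HEK293 cells, a line derived from human embryonic kidney, after transfection of a mimic of a tRNA-derived small RNA (tDR). Its 9 members are the 5p guide arms hsa-let-7a-5p, hsa-let-7b-5p, hsa-let-7c-5p, hsa-let-7d-5p, hsa-let-7e-5p, hsa-let-7f-5p, hsa-let-7g-5p, hsa-let-7i-5p and hsa-miR-98-5p, written let-7a to let-7i and miR-98 from here on. They were taken by name from the 2962 small RNA features of the count table. The choice by name used no measured value, although earlier results of these data were known. For 4 libraries the cells had received a tRNA-Asp-GTC-3′tDR mimic, and for the other 4 a scramble control mimic, both at 50 nM with Lipofectamine RNAiMAX, with collection after 48 h. All groups were of the same unmodified line, and untransfected cells were not analysed here. The series title describes this tDR as hypoxia-responsive and ties it to renal protection through RNA autophagy, and the comparison asks which small RNAs differ when it is supplied. No member passed the test between the groups. The member nearest to the threshold was let-7g, with an edgeR adjusted p of 0.0512 when scaled to the whole library. It made up 10.5 to 11.5% of the family's counts in the tDR libraries and 13.8 to 17.2% in the scramble libraries. For this share the edgeR adjusted p was 0.163. Set against the family's counts, 11.2% of microRNAs were likewise lower in tDR without overlap.

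The family takes its name from a gene that times larval development in Caenorhabditis elegans. In human cells its members are loaded into Argonaute proteins and repress messenger RNAs of growth and stem cell genes, among them RAS, MYC, HMGA2 and LIN28B, which they recognise mainly through the seed at the 5′ end. LIN28A and LIN28B in turn bind let-7 precursors and block their maturation, and HEK293 cells are a common system for studying LIN28B and its control of let-7. The members thus share most predicted targets, while their genes, and the loops of their precursors, differ.

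The mature sequences are shown because the members differ by so few bases that the counting can move reads between them. All 9 members were matched in RefSeq (GRCh38.p14), each was 22 bases long, and all carried the seed GAGGUAG at bases 2 to 8, which is in capitals.
hsa-let-7a-5p: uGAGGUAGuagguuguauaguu
hsa-let-7c-5p: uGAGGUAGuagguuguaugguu
hsa-let-7b-5p: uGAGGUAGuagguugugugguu
hsa-let-7e-5p: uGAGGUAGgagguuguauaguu
hsa-let-7f-5p: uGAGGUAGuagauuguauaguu
hsa-let-7d-5p: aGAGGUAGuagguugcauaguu
hsa-let-7g-5p: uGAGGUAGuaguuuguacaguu
hsa-let-7i-5p: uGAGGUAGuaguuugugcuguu
hsa-miR-98-5p: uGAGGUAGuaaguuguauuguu

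Counted from 1 at the 5′ end, with the base of let-7a first, let-7c differed from let-7a by A19G, let-7e by U9G and let-7f by G12A. These 3 members stood 1 base from let-7a, and let-7b, with A17G and A19G, stood 1 base from let-7c. The other 4 members differed from let-7a by at least 2 bases: let-7d by U1A and U16C, let-7g by G12U and U18C, miR-98 by G11A and A19U, and let-7i by 4 bases (G12U, A17G, U18C and A19U). Among the 2370 mature microRNAs of the RefSeq table, 11 had this seed. Of these, miR-4458 and miR-4500 were not among the counted features and were not analysed here.

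The 9 members come from 12 precursor genes (GRCh38, GENCODE release 29). On chromosome 9, MIRLET7A1, MIRLET7F1 and MIRLET7D lie within 2901 bases, at 94175962 to 94175983, 94176353 to 94176374 and 94178841 to 94178862 (mature 5p arms, plus strand), in an intron of the long noncoding RNA AL158152.2. MIRLET7G (chromosome 3, 52268336 to 52268357, minus strand) lies in an intron of WDR82, a subunit of a histone methyltransferase complex. MIR98 (chromosome X, 53556299 to 53556320) and MIRLET7F2 (53557246 to 53557267) lie within 969 bases of each other in an intron of HUWE1, a ubiquitin ligase. MIRLET7A2 (chromosome 11, 122146568 to 122146589) and MIRLET7C (chromosome 21, 16539838 to 16539859) lie in introns of the noncoding host genes MIR100HG and MIR99AHG, and MIRLET7E (chromosome 19, 51692793 to 51692814) in an intron of SPACA6. MIRLET7A3 (chromosome 22, 46112752 to 46112773) and MIRLET7B (46113691 to 46113712) lie in exons of MIRLET7BHG, and MIRLET7I (chromosome 12, 62603691 to 62603712) in an intron of the noncoding AC048341.1. Counts of let-7a thus add reads of 3 genes and those of let-7f reads of 2, and the table cannot separate them. The precursor hairpins of the most abundant member and of let-7g are shown with both arms in capitals, since the loop between the arms is where LIN28 proteins bind.
MIRLET7A1: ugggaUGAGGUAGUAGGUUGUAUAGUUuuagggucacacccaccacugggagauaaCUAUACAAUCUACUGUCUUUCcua
MIRLET7G: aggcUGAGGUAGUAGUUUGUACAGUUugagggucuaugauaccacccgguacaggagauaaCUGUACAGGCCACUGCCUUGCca

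OTTR-seq (Ordered Two-Template Relay sequencing) adds both adapters while the RNA is being copied by a reverse transcriptase, with no ligation. Counts summed to between 6910186 and 8007025 in the tDR libraries and between 4016295 and 10246336 in the scramble libraries, with 28455 to 47105 of these on microRNAs in tDR and 32276 to 97173 in scramble. MicroRNAs held 0.682%, 0.536%, 0.355% and 0.414% of the counts in tDR libraries 1 to 4, and 0.476%, 0.649%, 0.804% and 0.948% in scramble libraries 1 to 4, so the groups overlapped and tDR libraries 3 and 4 were the lowest. The row scr2, for which the labels give no meaning, held 59 to 240 counts in the tDR libraries and 22444 to 58186 in the scramble libraries. As a check of the cell line, microRNAs known to be abundant in HEK293 were present in every library. hsa-miR-92a-3p had 2232 to 4232 counts in tDR and 3488 to 11042 in scramble libraries. With whole-library scaling it was called lower in tDR (log2 fold change -0.79, edgeR adjusted p = 0.0229), as were 4.59% of microRNAs. With microRNA scaling it was not called (log2 fold change -0.48, edgeR adjusted p = 0.199). In tDR libraries hsa-miR-10a-5p had 175 to 351 counts, hsa-miR-10b-5p 64 to 152 and hsa-miR-196a-5p 81 to 141. In scramble libraries these had 132 to 504, 70 to 231 and 104 to 254 counts. Of 13 microRNAs that mark liver, blood, endothelium, neurons or muscle, 6 were in the table, and these summed to 280 to 512 counts in tDR and 274 to 729 in scramble libraries, mostly hsa-miR-9-5p. This neuronal microRNA had 228 to 420 counts in tDR and 240 to 657 in scramble libraries. It was above hsa-miR-10a-5p, hsa-miR-10b-5p and hsa-miR-196a-5p in every library. hsa-miR-126-3p, a defining endothelial microRNA, had 32 to 64 counts in tDR and 27 to 48 in scramble libraries. With microRNA scaling its log2 fold change was 0.80 (95% interval 0.22 to 1.38, edgeR adjusted p = 0.0775), with overlapping groups. It was 0.47 with whole-library scaling (edgeR adjusted p = 0.336), and the part of hsa-miR-126-3p in the results was not tested. The other 4 (hsa-miR-124-3p, hsa-miR-223-3p, hsa-miR-1-3p and hsa-miR-133a-3p) had 0 to 20 counts in tDR and 0 to 14 in scramble libraries, and hsa-miR-122-5p of liver and hsa-miR-451a of red cells were not among the counted features. Nothing in the labels tells whether the 4 replicates of a group came from 4 cultures. If they did not, p-values reflect technical spread alone. In these bulk libraries fewer cells of a kind and less RNA per cell cannot be told apart.

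The family held 1310, 1310, 837 and 980 counts in tDR libraries 1 to 4 and 1165, 1705, 915 and 2427 counts in scramble libraries 1 to 4. This was 2.78%, 3.22%, 2.94% and 3.33% of the microRNA counts in the tDR libraries and 2.97%, 2.57%, 2.83% and 2.50% in the scramble libraries. The mean of this share was 3.07 ± 0.252% in the tDR and 2.72 ± 0.221% in the scramble libraries (SD, n = 4 each), and the ranges overlapped. The exact binomial 95% intervals, which cover counting error only, reached from 2.63 to 2.93% in tDR library 1, the lowest of its group, and from 2.81 to 3.14% in scramble library 1, the highest of its group. Scaled to the whole library as CPM (counts relative to library size, with TMM factors), the sum was 159 ± 39.7 CPM in the tDR libraries and 182 ± 31.6 CPM in the scramble libraries, a log2 ratio of the means of -0.19. Scaling to microRNAs alone took CPM over the total of the tested microRNAs, with TMM factors from these microRNAs (microRNA CPM). The sum was then 30655 ± 2276 in the tDR and 27928 ± 1560 in the scramble libraries, a log2 ratio of 0.13. Under both scalings the groups overlapped. The direction of the sum depended on the scaling, and with whole-library scaling also on the libraries. Without tDR library 3 the log2 ratio was -0.066, without tDR library 2 it was -0.33, and without tDR libraries 3 and 4 together it was 0.075.

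One member dominated. let-7a had the highest count in all 8 libraries, and let-7f was above let-7g in 7 of 8, with 200 counts of each in scramble library 1. let-7g was above each of the 6 remaining members in 8 of 8 libraries. In whole-library CPM, let-7a stood at 94.8 ± 22.9 in the tDR libraries and 98.0 ± 18.6 in the scramble libraries, let-7f at 30.0 ± 9.31 in tDR and 33.4 ± 6.48 in scramble, and let-7g at 17.3 ± 4.38 in tDR and 27.6 ± 4.53 in scramble (SD, n = 4 each). Neighbours in the order of mean levels were compared with the larger of their SDs. let-7f and let-7g differed by less than this in the scramble libraries and by more in the tDR libraries. Below them came 3 members of similar level, with let-7c at 5.40 ± 0.927 CPM in tDR and 5.15 ± 0.955 in scramble, let-7e at 4.63 ± 1.72 in tDR and 5.78 ± 1.82 in scramble, and let-7i at 3.50 ± 1.39 in tDR and 5.35 ± 0.342 in scramble. Each differed from its neighbour by less than the larger SD, although let-7c was above let-7i in all 4 tDR libraries. The lowest 3 were miR-98 at 1.26 ± 0.501 CPM in tDR and 2.73 ± 0.942 in scramble, let-7d at 1.08 ± 0.506 in tDR and 2.28 ± 0.640 in scramble, and let-7b at 1.05 ± 0.893 in tDR and 1.30 ± 0.671 in scramble. Neighbours among them differed by less than the larger SD, except that let-7d was above let-7b by more than this in the scramble libraries. All members have the same length, so levels can be set side by side, although the method's capture of each sequence was not measured. Among the 342 microRNAs of the table, let-7a ranked 12th by mean microRNA CPM, let-7f 29th and let-7g 35th, and let-7b was the lowest member at rank 201.

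**Figure D1:**
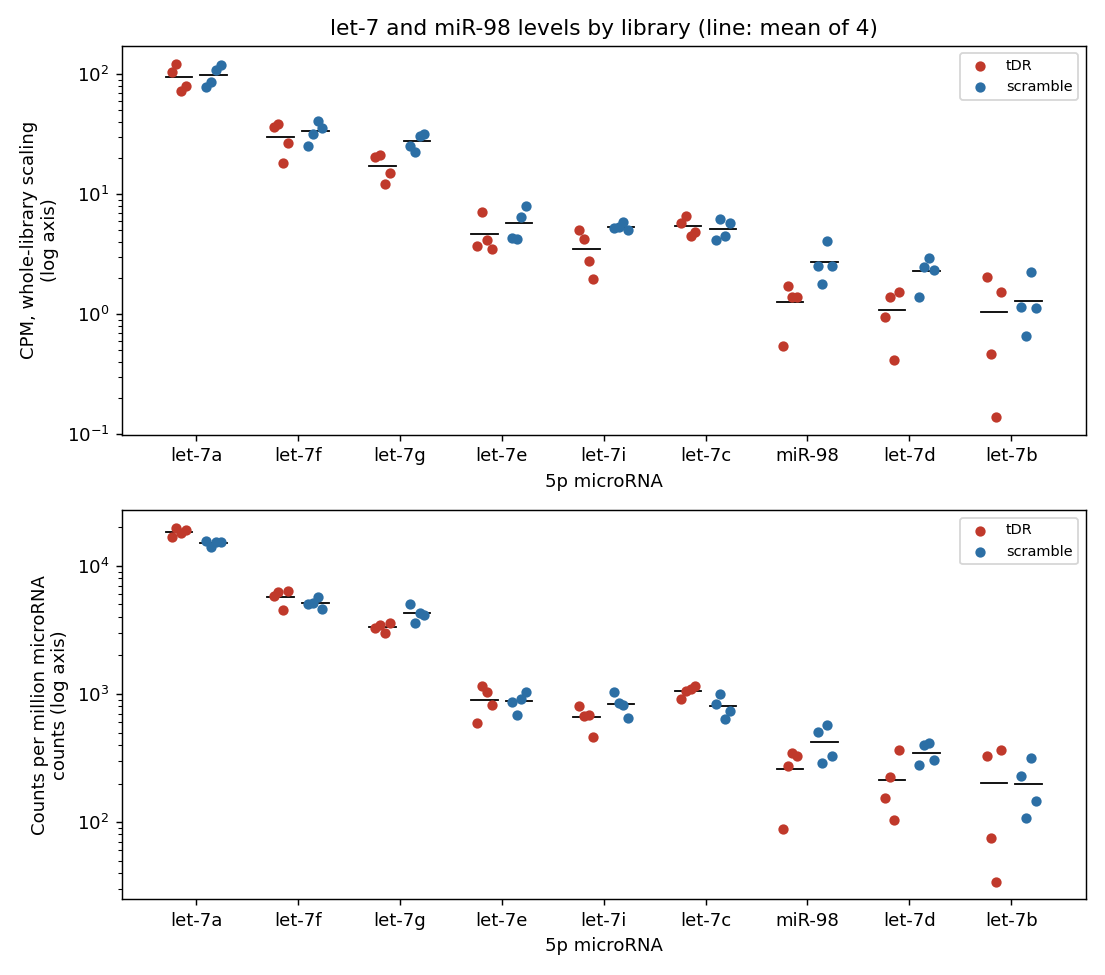
Levels of the 9 members in each library, in CPM with whole-library scaling (top) and in microRNA CPM (bottom), both on log axes; red points are tDR libraries, blue points scramble libraries and lines the mean of 4. let-7a is the highest member throughout, and the let-7g points of the groups do not overlap in either panel.

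With whole-library scaling, no member was called at an adjusted p below 0.05 by edgeR's quasi-likelihood test. Of 1761 features tested, 6.70% were called in either direction, 1.36% lower and 5.34% higher in tDR, and of 196 microRNAs 4.59% were called lower and 0 higher. Of the 9 members 8 were tested, and let-7b was below the count filter. Fold changes were below 0 for 7 of the 8 and the median was -0.47 on the log2 scale, against -0.33 over the tested microRNAs, of which 159 of 196 were below 0, and 0.02 over all features.

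let-7g, the WDR82-intron member, had 20.6, 21.4, 12.2 and 15.1 CPM in tDR libraries 1 to 4 and 25.4, 22.3, 30.5 and 32.0 CPM in scramble libraries 1 to 4. Every tDR library was below every scramble library, with tDR library 2 and scramble library 2 nearly touching. The log2 fold change was -0.67 (SE 0.20, 95% interval -1.09 to -0.25), with an edgeR adjusted p of 0.0512 and an unadjusted p of 0.00346. An unadjusted p below 0.05 with lower tDR levels was found for 3 of the 8 members (let-7g, let-7d and miR-98) and for 26.0% of the tested microRNAs. Of these members, let-7d and miR-98 had passed the count filter only through their scramble level, which favours this direction. tDR libraries 3 and 4, lowest in let-7g, were also those in which microRNAs held the smallest share of counts (0.355% and 0.414%), whose part in this result was not tested. The p of let-7g ranked 10th among the 196 microRNAs, just outside the 9 called. Across 19 alternative settings let-7g was below 0 in all, with log2 fold changes from -0.82 to -0.35, and passed in 11, with adjusted p from 0.00987 with the DESeq2 Wald test to 0.33 without tDR libraries 3 and 4. The value of -0.35 is that of the microRNA-scaled fit, which is counted among the 19. The side of the threshold on which let-7g fell depended on single libraries. The edgeR adjusted p was 0.0278 without tDR library 1, 0.0342 without tDR library 2, 0.0478 without scramble library 1 and 0.0493 without scramble library 2, and it was 0.0895 to 0.13 when any other library was left out.

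The other 3 members with larger fold changes were let-7i, let-7d and miR-98. let-7i had 5.04, 4.21, 2.78 and 1.95 CPM in tDR libraries 1 to 4 and 5.21, 5.31, 5.84 and 5.05 CPM in scramble libraries 1 to 4. tDR library 1 lay only just below the lowest scramble library and tDR library 4 far below it. On the log2 scale the difference was -0.61 (SE 0.29, 95% interval -1.21 to 0.0041, edgeR adjusted p = 0.236). miR-98, which shares the HUWE1 intron with one of the let-7f genes, had 4, 11, 10 and 10 counts in tDR libraries 1 to 4 and 20, 19, 18 and 29 counts in scramble libraries 1 to 4. Scaled, these were 0.545 to 1.71 CPM in the tDR libraries and 1.80 to 4.04 CPM in the scramble libraries, which did not overlap. The estimate was -1.06 on the log2 scale (SE 0.42, edgeR adjusted p = 0.143). let-7d, from the chromosome 9 cluster, had 7, 9, 3 and 11 counts in tDR and 11, 26, 13 and 27 counts in scramble libraries 1 to 4. Its CPM ranges, 0.417 to 1.54 in the tDR libraries and 1.40 to 2.92 in the scramble libraries, overlapped, and the estimate was again -1.06 (SE 0.44, edgeR adjusted p = 0.162). Both miR-98 and let-7d reached the filter's 1.28 CPM in all 4 scramble libraries but in only 2 and 1 tDR libraries, so they were tested because of their scramble level. In whole-library CPM, let-7g, let-7i and miR-98 did not overlap between the groups, all lower in tDR, which also held for 10.2% of the tested microRNAs and 5.51% of all features.

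let-7a and the members 1 base from it lay closer to 0. let-7a had 104, 123, 72.6 and 80.0 CPM in tDR libraries 1 to 4 and 78.4, 86.9, 108 and 119 CPM in scramble libraries 1 to 4. The groups were fully interleaved, and the log2 fold change of -0.048 had a 95% interval from -0.42 to 0.33 (SE 0.18, edgeR adjusted p = 0.923). let-7f had 36.1, 38.7, 18.2 and 26.9 CPM in tDR and 25.4, 31.8, 40.7 and 36.0 CPM in scramble libraries 1 to 4, and its log2 fold change was -0.15 (SE 0.21, 95% interval -0.60 to 0.29, edgeR adjusted p = 0.779). Here too the ranges overlapped, and tDR library 3 was the lowest of all. let-7c had 5.72, 6.55, 4.45 and 4.89 CPM in tDR and 4.19, 6.16, 4.49 and 5.75 CPM in scramble libraries 1 to 4, and let-7e had 3.68, 7.17, 4.17 and 3.49 CPM in tDR and 4.32, 4.27, 6.51 and 8.01 CPM in scramble libraries 1 to 4. Both overlapped between the groups as well. The log2 fold change of let-7c was 0.047 (SE 0.25, edgeR adjusted p = 0.934), and let-7e stood at -0.33 (SE 0.30, edgeR adjusted p = 0.585). let-7b had 15, 3, 1 and 11 counts in tDR and 9, 7, 10 and 13 counts in scramble libraries 1 to 4, and without the filter its log2 fold change was -0.19 (SE 0.59, edgeR adjusted p = 0.909). Summing let-7a, let-7b, let-7c, let-7e and let-7f into 1 feature, so that reads moved between them stay inside it, gave -0.078 (SE 0.18, edgeR adjusted p = 0.867).

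**Figure D2:**
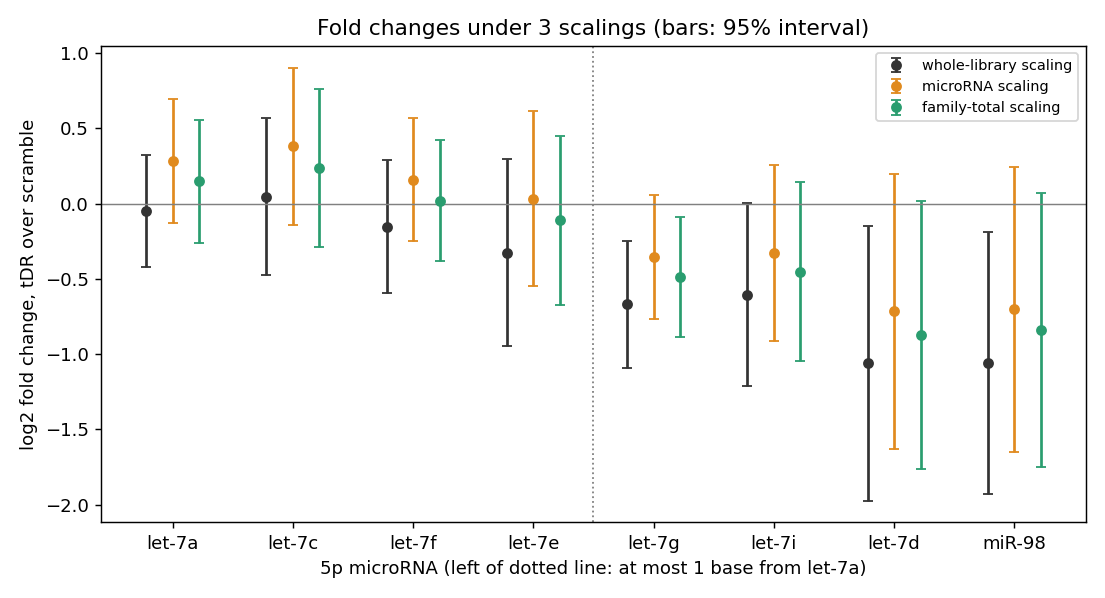
Log2 fold change of tDR over scramble for the 8 tested members under whole-library (black), microRNA (orange) and family-total (green) scaling; bars are 95% intervals and the dotted line separates let-7a and members 1 base from it from the rest. Under every scaling let-7g, let-7i, let-7d and miR-98 lie below the other 4; with whole-library scaling they stand at -0.67, -0.61, -1.06 and -1.06.

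Scaling on microRNAs alone sets aside a shift common to all microRNAs, and under it the family divided around 0. Again no member was called by edgeR (8.97% of all features and 3.06% of microRNAs were, microRNAs 0.510% lower and 2.55% higher), and none had an unadjusted p below 0.05. Of the 8 tested members 4 were above and 4 below 0, with a median of -0.15 against 0.0047 over microRNAs and 0.36 over all features. let-7a had 16672, 19720, 17909 and 18954 microRNA CPM in tDR libraries 1 to 4 and 15618, 14034, 15235 and 15258 in scramble libraries 1 to 4. Every tDR library was now above every scramble library, which held for 6.63% of microRNAs, while the log2 fold change of 0.28 did not pass (SE 0.20, 95% interval -0.13 to 0.70, edgeR adjusted p = 0.362). Its means were 18314 ± 1322 microRNA CPM in the tDR and 15036 ± 691 in the scramble libraries (SD, n = 4 each), a narrower relative spread than in whole-library CPM. let-7g had 3304, 3433, 3019 and 3573 microRNA CPM in tDR libraries 1 to 4 and 5062, 3596, 4299 and 4126 in scramble libraries 1 to 4. The groups still did not overlap, with scramble library 2 just above tDR library 4, as held in the same direction for 7.65% of microRNAs. The log2 fold change of let-7g was -0.35 (SE 0.19, 95% interval -0.77 to 0.056, edgeR adjusted p = 0.256). let-7c and let-7f stood at 0.38 and 0.16, let-7e at 0.033, let-7i at -0.33, let-7d at -0.72 and miR-98 at -0.70, with edgeR adjusted p from 0.302 to 0.941, and all 6 overlapped between the groups.

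The proportions of the members within the family do not depend on any scaling between libraries. let-7a made up 58.2%, 60.1%, 62.4% and 58.5% of the family in tDR libraries 1 to 4 and 53.0%, 53.8%, 52.7% and 56.1% in scramble libraries 1 to 4. The groups did not overlap, as was so in the same direction for 4.59% of microRNAs set against the family's sum, and the mean was 59.8 ± 1.92% in tDR and 53.9 ± 1.54% in scramble (SD, n = 4 each). let-7f held 18.6 ± 2.05% in tDR and 18.4 ± 1.52% in scramble, with overlapping ranges. let-7g held 11.5%, 10.5%, 10.5% and 11.0% in tDR libraries 1 to 4 and 17.2%, 13.8%, 14.9% and 15.2% in scramble libraries 1 to 4, with a mean of 10.9 ± 0.500% in tDR and 15.2 ± 1.41% in scramble. This share, too, did not overlap between the groups, and 11.2% of microRNAs were likewise lower in tDR. let-7c held 3.45 ± 0.302% in tDR and 2.89 ± 0.678% in scramble, let-7e 2.93 ± 0.745% in tDR and 3.13 ± 0.491% in scramble, and let-7i 2.18 ± 0.588% in tDR and 3.01 ± 0.499% in scramble. The smallest shares were those of miR-98 (0.840 ± 0.385% in tDR, 1.50 ± 0.411% in scramble), let-7d (0.676 ± 0.327% in tDR, 1.25 ± 0.269% in scramble) and let-7b (0.654 ± 0.556% in tDR, 0.703 ± 0.300% in scramble). In the edgeR fit with the family's sum as library size, where 6.19% of features were called, no member passed. let-7g stood at -0.49 (SE 0.19, 95% interval -0.88 to -0.086, edgeR adjusted p = 0.163, unadjusted p = 0.0204), where 9.69% of microRNAs were lower at an unadjusted p below 0.05, and let-7a at 0.15 (SE 0.19, edgeR adjusted p = 0.709).

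The 5 members linked to let-7a by steps of 1 base (let-7a, let-7b, let-7c, let-7e and let-7f) together made up 84.8%, 86.0%, 85.5% and 85.4% of the family in tDR libraries 1 to 4, and 76.7%, 80.3%, 78.9% and 80.1% in scramble libraries 1 to 4. The remaining 4 (let-7d, let-7g, let-7i and miR-98) made up 14.6 ± 0.474% in tDR and 21.0 ± 1.68% in scramble (SD, n = 4 each). The groups did not overlap, and the tDR libraries lay within a narrower range. Most of the difference lay in let-7g, with mean shares of 10.9% in tDR and 15.2% in scramble. The shares of let-7d, let-7i and miR-98 each overlapped between the groups. No test was made of these summed shares. Whether the counting moved reads between near-identical members was not tested.

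**Figure D3:**
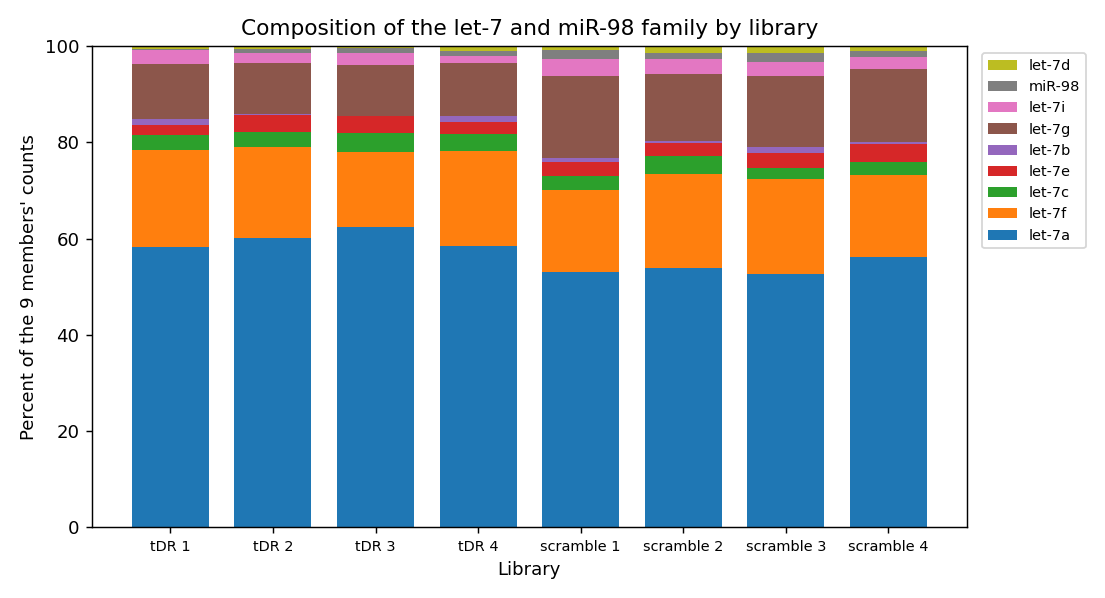
Percent of the family's counts held by each member in each library, tDR libraries 1 to 4 and then scramble libraries 1 to 4, stacked from let-7a upward. let-7a takes 58.2 to 62.4% in the tDR and 52.7 to 56.1% in the scramble libraries, and the let-7g band takes 10.5 to 11.5% in the tDR and 13.8 to 17.2% in the scramble libraries.

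Set against let-7a in the same library, let-7g gave 19.8, 17.4, 16.9 and 18.8 counts per 100 let-7a counts in tDR libraries 1 to 4 and 32.4, 25.6, 28.2 and 27.0 in scramble libraries 1 to 4. The highest tDR ratio was well below the lowest scramble ratio, also for tDR libraries 1 and 2, in which whole-library CPM of let-7g was nearest to the scramble level. Against let-7f the ratio of let-7g was 57.0, 55.2, 67.2 and 56.0 counts per 100 in tDR and 100, 70.1, 75.1 and 89.1 in scramble libraries 1 to 4, with tDR library 3 and scramble library 2 the closest. miR-98 gave 0.525 to 1.92 counts per 100 let-7a counts in the tDR libraries and 2.07 to 3.73 in the scramble libraries, again without overlap. The ratio of let-7i was 3.64 ± 0.998 in tDR and 5.60 ± 1.03 in scramble, and that of let-7d 1.14 ± 0.571 in tDR and 2.32 ± 0.519 in scramble. Both overlapped, as did those of let-7f, let-7c, let-7e and let-7b. Ratios to let-7a that were lower in tDR without overlap were seen for 20.5% of the 195 other tested microRNAs, and for 2 of the 7 other members among these, let-7b not being tested.

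**Figure D4:**
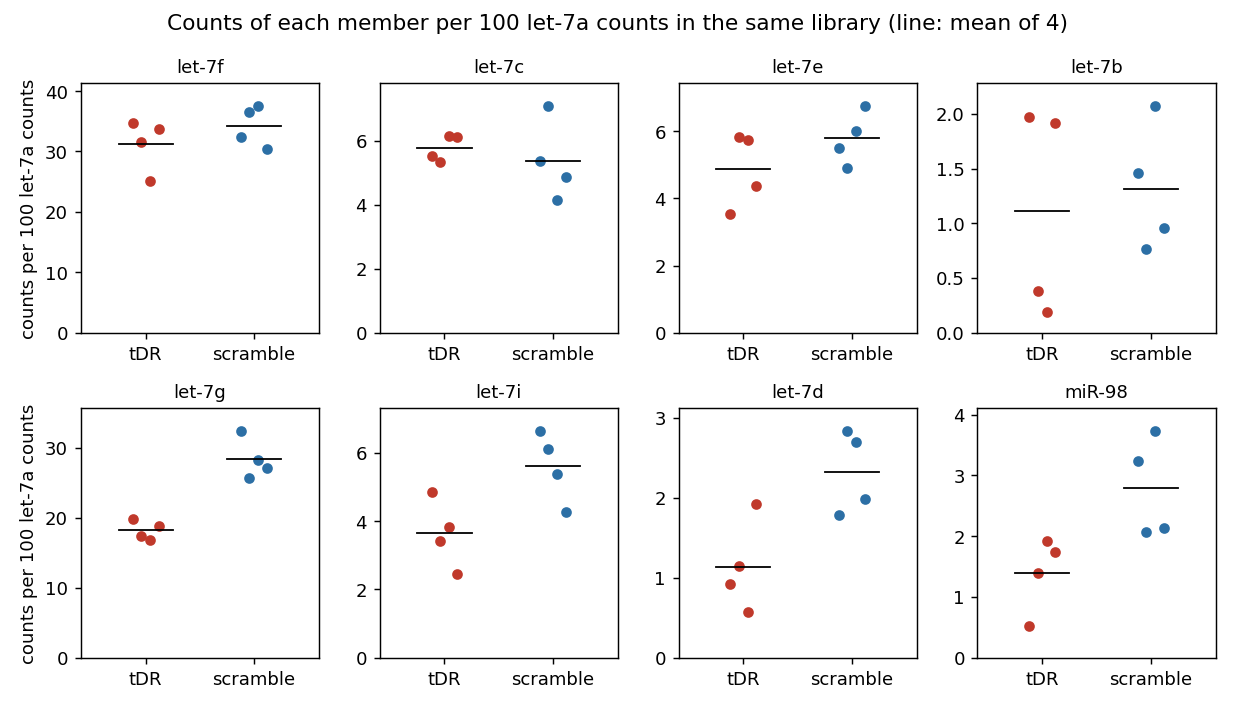
Counts of each of the 8 other members per 100 let-7a counts in the same library; red points are tDR libraries, blue points scramble libraries and lines the mean of 4, each panel with its own axis from 0. Only the let-7g and miR-98 panels show no overlap, at 16.9 to 19.8 in tDR against 25.6 to 32.4 in scramble for let-7g and 0.525 to 1.92 in tDR against 2.07 to 3.73 in scramble for miR-98.

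Of the passenger arms, which are mostly degraded after the guide is loaded, 2 were in the table. let-7a-3p, which MIRLET7A1 and MIRLET7A3 share, had 22, 24, 18 and 25 counts in tDR and 15, 29, 15 and 27 counts in scramble libraries 1 to 4. Its log2 fold change was 0.32 with whole-library scaling (SE 0.31, edgeR adjusted p = 0.626) and 0.67 with microRNA scaling (SE 0.32, edgeR adjusted p = 0.196), where the groups did not overlap, at 481 to 827 microRNA CPM in tDR and 303 to 474 in scramble. Such a gap, higher in tDR, held for 6.63% of microRNAs. With whole-library and family-total scaling the groups of let-7a-3p overlapped. The guide exceeded this passenger by 29.8 ± 5.17 times in the tDR libraries and 38.8 ± 8.87 times in the scramble libraries (SD, n = 4 each), with overlapping ranges. Counts of the guide can also include reads of MIRLET7A2, which is not a source of this passenger. let-7f-2-3p, which marks the HUWE1-intron copy of let-7f, had 6, 5, 2 and 4 counts in tDR and 6, 11, 5 and 7 counts in scramble libraries 1 to 4, too few to be tested.

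Some let-7 genes are transcribed together with microRNAs of the miR-99/100 and miR-125 families, and 4 of these partners were in the table. None passed with either scaling by edgeR, against 6.70% and 8.97% of all features. Partners of let-7e, hsa-miR-125a-5p and hsa-miR-99b-5p, had log2 fold changes of -0.22 and -0.38 with whole-library scaling (SE 0.17 and 0.26, with edgeR adjusted p of 0.497 and 0.433), and let-7e itself -0.33. hsa-miR-99a-5p, the partner of let-7c, stood at -0.040 (SE 0.26, edgeR adjusted p = 0.948), and let-7c at 0.047. hsa-miR-125b-5p, which accompanies both let-7a-2 and let-7c, stood at -0.33 (SE 0.20, edgeR adjusted p = 0.342). With microRNA scaling the 4 partners ranged from -0.062 to 0.30.

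Among 149 other microRNAs with a mean count of at least 20, those whose level over the 8 libraries was most like that of the family's sum were let-7a-3p (Pearson r = 0.704), hsa-miR-193b-3p (0.699) and hsa-miR-26b-5p (0.684), in log2 CPM with microRNA scaling. The libraries share their group and their microRNA total, so these values describe the likeness and no more. hsa-miR-193b-3p was called higher with microRNA scaling, at 791 ± 168 microRNA CPM in the tDR and 327 ± 43.9 in the scramble libraries (SD, n = 4 each), a log2 difference of 1.30 (SE 0.30, edgeR adjusted p = 0.0117). Of the tested microRNAs 2.55% were called higher. With whole-library scaling hsa-miR-193b-3p was not called (log2 fold change 1.00, edgeR adjusted p = 0.0818). It had 18 to 40 counts in tDR and 11 to 26 in scramble libraries. With microRNA scaling hsa-miR-26b-5p stood at 0.089 (SE 0.19, edgeR adjusted p = 0.778).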

How the data were processed

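The authors deposited whole-number read counts per small RNA feature and a second file with a normalized signal. Setting these deposited files against each other showed that signal is the count over a library factor, with separate factors for tRNAs and for the remaining features. The submitters' processing notes name hg38; no aligner, counter or annotation is given in the sources used here. 2 rows that are not genes (scr and scr2, up to 0.565% of a library) were left out. Groups and replicate numbers are those of the labels. Members and lists were chosen with earlier results of these data known; those named are the members, their passenger and partner microRNAs, marker microRNAs and the 3 others with the highest correlation to the family's sum.

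The test was edgeR 4.0.16 in R 4.3.3, on the deposited counts: filterByExpr (1.28 CPM in at least 4 libraries), TMM, robust quasi-likelihood F test, Benjamini-Hochberg adjustment over 1761 features. SE is the log2 fold change over the square root of F. The fit was repeated with TMM on microRNAs alone and with the summed family counts as library size. Only the whole-library fit was run on simulated counts, with changes put into randomly drawn features, and the outcome is not reported here. Between the 12 replicate pairs, chi-square over its degrees of freedom was at least 15.3, so none was a copy. At these depths 3 counts, the limit that a count of 0 allows, equal 0.409 to 0.468 CPM in the tDR and 0.261 to 0.674 CPM in the scramble libraries, with TMM factors. Alternatives used DESeq2 1.42.0, limma-voom (limma 3.58.1) and limma on log2 of the signal plus 1. Figures were made with Python 3.11.15 and matplotlib 3.10.9.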

Additional observations from a re-analysis of the deposited data

How the results depend on the processing

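The count of 0 members called with whole-library scaling became 1, always let-7g and always lower, with DESeq2 size factors, total counts, no low-count filter, a minimum mean count of 50, the DESeq2 Wald test, limma-voom and limma on the deposited signal, and ran from 0 to 1 with 1 library left out. It stayed 0 with microRNA scaling in every alternative run. With the sum of the 7 members other than let-7a and let-7f as library size, 1 member, let-7a, was called higher (log2 fold change 0.51, edgeR adjusted p = 0.0351). let-7g is the largest part of that sum and had lower levels in tDR, so this call is not independent of let-7g. The share of all features called with this sum was not worked out, so the call has no background. The family sum, at -0.19 with whole-library scaling, was 0.17 on microRNA totals, 0.075 without tDR libraries 3 and 4, and -0.33 to -0.066 with 1 library left out. The 9 microRNAs called with whole-library scaling became 23 with DESeq2, 1 with the replicate block and 5 to 22 with 1 library left out; the 6 called with microRNA scaling became 2 with the replicate block and 1 to 10. Under the replicate block let-7g stood at -0.68 (edgeR adjusted p = 0.22). Same-numbered libraries deviated from their group means with correlations of -0.384 to -0.133. These whole-profile values cannot tell whether the numbers mark a shared culture or batch, and the labels do not say. let-7d, let-7g, let-7i and miR-98 stayed below 0 in every alternative of all 3 scalings. Members near 0 changed sign. Replacing the whole-library factors by TMM on microRNAs, which is the microRNA scaling itself, gave let-7a 0.28, let-7e 0.033 and let-7f 0.16. With whole-library scaling let-7a reached 0.21 and let-7f 0.17 without tDR libraries 3 and 4. let-7c was -0.10 with total counts. With 1 library left out let-7a ran from -0.19 to 0.062, let-7c from -0.049 to 0.13 and let-7f from -0.29 to 0.027. With microRNA scaling let-7e was -0.0038 with limma-voom, -0.022 without tDR libraries 3 and 4 and -0.12 to 0.21 with 1 library left out. With family-total scaling let-7e was 0.25 on the 7-member sum and -0.22 to 0.033, and let-7f -0.0097 with a minimum mean of 50 and -0.022 to 0.093. The cause was not tested. Depth limits miR-98, let-7d and let-7b, with 1 to 29 counts a library.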
